A study of Homo sapiens with 6 samples.

Results

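The genes of nuclear transport, 49 of the 30327 genes in the count table, were followed after GRB2 knockdown in SK-BR-3 cells. The set was chosen by name. It holds the protein-coding NUP genes that carry a number, the IPO, KPNA, KPNB, TNPO and XPO families without XPO5, and RAN, TPR, RANBP2 and CSE1L. Of these, 48 had enough reads to be tested, among 15801 tested genes, and NUP210L, at most 0.182 CPM (read counts scaled to a common library size) in any library, did not. SK-BR-3 is an established breast cancer line that overexpresses the receptor HER2. Cells of this line received either a nontargeting control siRNA (si_NC, 3 libraries) or an siRNA of a single sequence against GRB2 (si_GRB2, 3 libraries), and their poly(A) RNA was sequenced with a strand-specific protocol. The labels do not say whether the 3 libraries of a group came from separate cultures, so the p-values measure only the spread between these libraries. The adaptor protein GRB2 links receptors such as HER2 to RAS signalling.

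The descriptions of the treated libraries read si_GRB2, but their titles, genotype entries and the series' design text speak of GRB2 overexpression. GRB2 itself measured 124, 129.5 and 126 CPM in si_NC and 27.8, 28.1 and 29.6 CPM in the libraries labelled si_GRB2, a log2 fold change of -2.15 (SE 0.04, edgeR adjusted p = 3.87e-15). Every direction below is that of the libraries labelled si_GRB2 relative to si_NC. Between 24810378 and 28532480 reads per library fell on genes. The SK-BR-3 markers ERBB2, GRB7, KRT8, KRT18, KRT19 and EPCAM were all detected, and all 6 were called, ERBB2 higher (log2 fold change 0.24) and the other 5 lower, from -0.20 (KRT19) to -0.55 (KRT18 and EPCAM). Of the markers of other cells, 5 of 6 averaged under 1 CPM in both groups, with COL1A1 as the exception. Reads on mitochondrial genes made up 8.66% to 9.02% of the si_NC libraries and 7.59% to 7.80% of the si_GRB2 libraries.

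Nearly all large molecules that move between nucleus and cytoplasm pass through nuclear pore complexes, ring-shaped assemblies of nucleoporins set into the nuclear envelope. A scaffold of Y complexes and an inner ring holds a central channel lined with phenylalanine-glycine (FG) repeats, with filaments on the cytoplasmic face and a basket on the nuclear face. Importins carry proteins inward and exportins carry cargo outward, and the small GTPase RAN sets the direction, because its GTP-bound form, abundant in the nucleus, releases import cargo and binds export cargo. Importin α proteins (KPNA genes) read the classical nuclear localization signal and are themselves carried in by importin β1 (KPNB1) and out by CSE1L.

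Across the set, 9 members were higher and 13 lower in si_GRB2 at an edgeR adjusted p under 0.05, and 26 did not pass. Among all genes tested, 15.2% were higher and 15.5% lower. The members were well expressed, with a median log2 CPM of 6.16 against 4.02 for all genes, and more genes are called at such levels. Of the 2445 genes within the middle range of the members' levels (log2 CPM 5.61 to 6.87), 25.6% were called higher and 22.2% lower, so the share of members called was near that of genes of like expression. The changes were small. Of the 22 called members, 18 changed by less than 20%, and the median log2 fold change of the members was -0.03, where that of all genes was 0. Differentially expressed genes (DEGs, changed by more than 1.5-fold with an adjusted p under 0.01) made up 0.829% of all genes in the upward and 1.69% in the downward direction. Among the members, KPNA5 and KPNA7 were up-regulated DEGs, and the count of down-regulated DEGs was 0 with edgeR, DESeq2 and limma, since 0 members fell past the fold limit, although 14 fell at an unadjusted p under 0.05. In 25 of the 48 tested members, 52.1%, the 3 si_GRB2 libraries did not overlap the 3 si_NC libraries. The share was 42.3% of all genes tested and 47.7% of the protein-coding genes tested, and the members are all protein-coding.

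The balance of rises and falls moved with the scaling. With edgeR's TMM factors, 40.9% of the members' calls were higher (9 higher and 13 lower), whereas with total counts alone 65.2% were (15 higher and 8 lower). Total counts shift every gene upward alike, and the median log2 fold change was then 0.052 over all genes and 0.021 over the members. With limma on log2(FPKM + 1), which changes the unit and the test as well, 62.5% of the calls were higher (5 higher and 3 lower), at medians of 0.024 over all genes and 0.013 over the members. Each of the 22 called members kept its direction under all 16 alternatives, or 15 for KPNA5, which a limit of 1 on mean FPKM left out, and CSE1L, KPNA2, KPNA3, KPNA5, KPNA7, NUP54, RANBP2 and TNPO3 kept their call as well. With total counts alone KPNA1, NUP107, NUP153, NUP35 and NUP37 were not called, and with DESeq2 KPNA6, NUP35, NUP37 and XPO7 were not. With limma on log2(FPKM + 1), those 8 were the calls that remained.

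**Figure D1:**
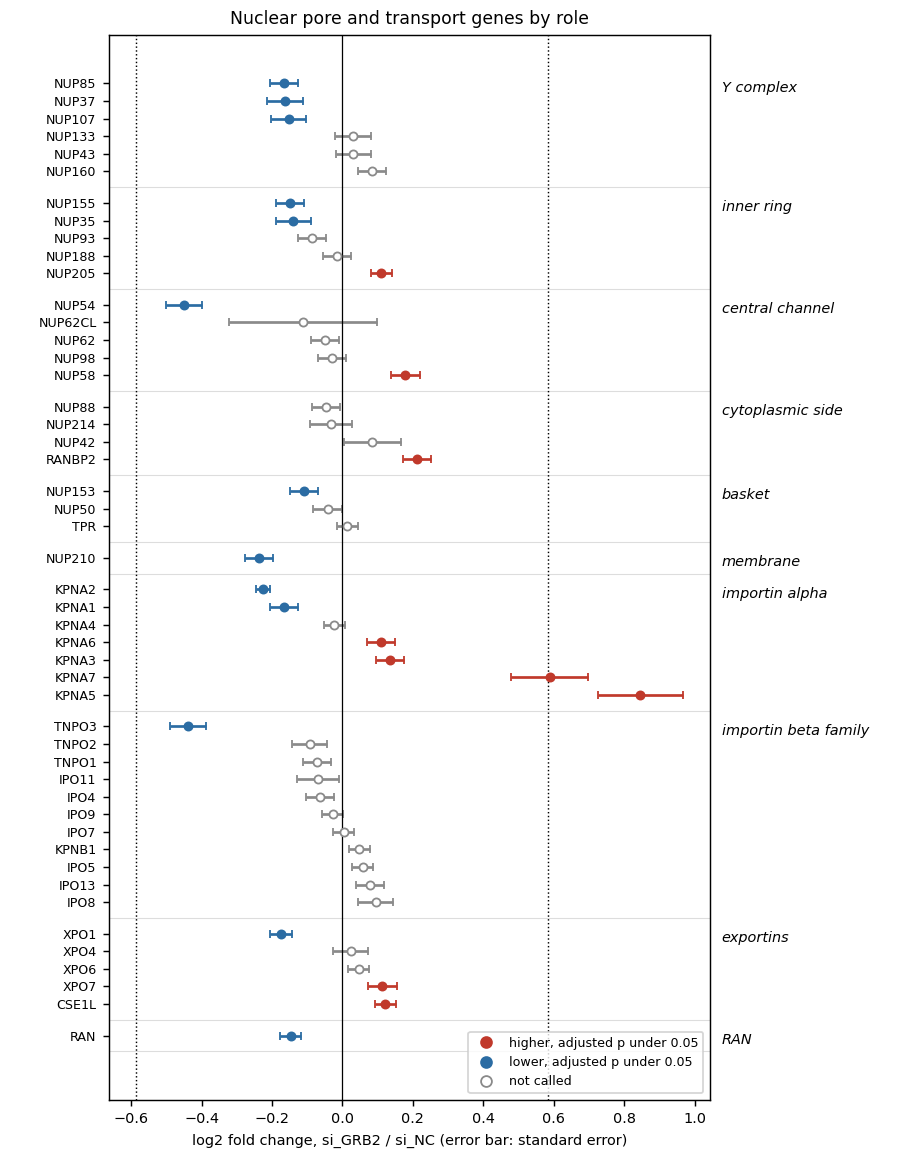
Log2 fold change (si_GRB2 over si_NC, x axis) of each tested member with its standard error as a bar, grouped by role on the y axis and coloured by call, with dotted lines at the fold limit of 1.5. KPNA5 (0.85) and KPNA7 (0.59) lie farthest to the right, NUP54 (-0.45) and TNPO3 (-0.44) farthest to the left, and most others lie close to 0.

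The deepest falls were those of NUP54, a subunit of the FG-repeat channel, and TNPO3 (transportin 3), the importin that carries serine- and arginine-rich splicing factors into the nucleus. NUP54 (chr4:76107562-76148485, minus strand, GRCh38) measured 41.2, 42.8 and 38.8 CPM in si_NC and 29.3, 29.6 and 30.8 CPM in si_GRB2. Its 3 si_GRB2 libraries were all below the lowest si_NC library, and the log2 fold change was -0.45 (SE 0.05, adjusted p = 3.08e-06). TNPO3 (chr7:128954180-129055173, minus strand) stood at 34.3, 33.8 and 35.9 CPM in si_NC and at 25.9, 25.7 and 25.1 CPM in si_GRB2. Again the groups were apart, with a log2 fold change of -0.44 (SE 0.05, adjusted p = 3.02e-06). NUP54 thus fell by 26.8%, and TNPO3 fell by 26.2%.

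The promoters of NUP54, TNPO3 and KPNA2, the fallen member with the most reads, are shown because these members fell at the lowest adjusted p-values of the set. Each sequence is the RefSeq promoter (GRCh38.p14, 250 bases before to 50 after the gene's start), read 5′ to 3′ on the gene's strand, and capitals mark an ETS motif in the first and second and CCAAT boxes in the last.
NUP54: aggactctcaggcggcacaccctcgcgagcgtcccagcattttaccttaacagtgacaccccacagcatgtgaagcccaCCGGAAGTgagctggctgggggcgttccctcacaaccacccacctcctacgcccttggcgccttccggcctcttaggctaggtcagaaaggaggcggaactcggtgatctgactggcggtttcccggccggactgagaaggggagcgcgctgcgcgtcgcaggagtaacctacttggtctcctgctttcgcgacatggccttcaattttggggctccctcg
TNPO3: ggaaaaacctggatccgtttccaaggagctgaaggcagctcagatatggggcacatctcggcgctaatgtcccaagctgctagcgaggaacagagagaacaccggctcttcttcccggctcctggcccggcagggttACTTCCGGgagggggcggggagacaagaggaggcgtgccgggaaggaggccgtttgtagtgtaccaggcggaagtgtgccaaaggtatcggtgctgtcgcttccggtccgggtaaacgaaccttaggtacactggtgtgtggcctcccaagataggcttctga
KPNA2: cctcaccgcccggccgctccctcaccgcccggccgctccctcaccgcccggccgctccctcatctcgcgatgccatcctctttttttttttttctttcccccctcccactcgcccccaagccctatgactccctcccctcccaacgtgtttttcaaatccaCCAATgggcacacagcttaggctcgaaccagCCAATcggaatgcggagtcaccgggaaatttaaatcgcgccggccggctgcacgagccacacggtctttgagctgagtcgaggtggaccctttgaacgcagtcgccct
They lie at chr4:76148348-76148647, chr7:129055062-129055361 and chr17:68035485-68035784. Counted from the RefSeq start, the ETS motif begins 171 bases upstream in NUP54, on the plus strand of the gene. In TNPO3 it begins 113 bases upstream, on the opposite strand. The CCAAT boxes of KPNA2 begin 89 and 58 bases upstream of its RefSeq start. GENCODE, the source of the gene positions given here, starts each of these genes further upstream. Both KPNA2 boxes therefore lie inside its GENCODE span (chr17:68035636-68047364).

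Promoters were found for 43 of the 49 members, and 4 motifs were searched in them on both strands, none of which contains another. KPNA4, KPNA5, KPNA7, KPNB1, NUP43 and XPO7 had no promoter to search, so neither DEG is covered. The ETS motif CCGGAAGT, the recognition sequence of a large transcription factor family, was in 7 of the 43 (16.3%), against 4.44% of all 27305 promoters and 8.75% of the 10689 promoters of tested genes. The 7 were those of NUP54, TNPO3, NUP35, NUP58, NUP160, IPO4 and XPO6, of which the first 3 were called lower, NUP58 higher and the rest not called. By call, it was in 3 of 13 promoters of members lower, 1 of 6 of members higher and 3 of 23 of members not called. CCAAT stood in 53.5% of members' promoters (35.7% of all, 37.0% of tested genes), the E-box CACGTG in 16.3% (7.43% and 10.2%), and the NRF1 core GCATGCGC in 9.3% (3.27% and 5.44%). Members lower in si_GRB2 held a CCAAT box in 6 of 13 promoters, members higher in 3 of 6 and members not called in 13 of 23. A match describes the sequence and does not show that a factor binds there.

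Of the Y complex, the outer scaffold of the pore, NUP107, NUP85 and NUP37 fell and NUP160, NUP133 and NUP43 did not pass the test. NUP85, the most abundant of them by FPKM, measured 86.9, 90.2 and 93.3 CPM in si_NC and 79.4, 82.4 and 79.3 CPM in si_GRB2 (log2 fold change -0.17, SE 0.04, adjusted p = 0.00283). NUP107 measured 55.4, 57.1 and 59.6 CPM against 49.2, 51.4 and 54.3 CPM (-0.15, SE 0.05, adjusted p = 0.0167). NUP37 measured 35.8, 34.1 and 33.8 CPM against 29.5, 30.2 and 32.9 CPM (-0.16, SE 0.05, adjusted p = 0.0227). In each of the 3 genes every si_GRB2 library was below every si_NC library. The call of NUP107 did not hold without si_GRB2 replicate 1 (adjusted p = 0.0848) or 2 (0.06), nor that of NUP37 without si_NC replicate 1 (0.0743), si_GRB2 replicate 1 (0.0982) or 2 (0.0929). NUP160, a large scaffold subunit of the same complex, had a log2 fold change of 0.08 (SE 0.04, adjusted p = 0.165).

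In the inner ring, which anchors the channel to the membrane-bound scaffold, NUP155 and NUP35 fell and NUP205 rose. NUP155 measured 80.7, 79.1 and 79.8 CPM in si_NC and 69.9, 73.0 and 73.0 CPM in si_GRB2, groups that were clearly apart (log2 fold change -0.15, SE 0.04, adjusted p = 0.00429). NUP205, one of the large ring scaffolds, measured 115, 114 and 110.4 CPM against 119, 123 and 126 CPM (0.11, SE 0.03, adjusted p = 0.0194). Its groups did not overlap either, but the call was lost without si_NC replicate 2 or 3 or without si_GRB2 replicate 2 or 3 (adjusted p from 0.055 to 0.0939). NUP35, which binds NUP155, had a log2 fold change of -0.14 (SE 0.05, adjusted p = 0.0380), and that call was kept without si_NC replicate 3 but not without any of the other 5 libraries (adjusted p from 0.0559 to 0.134). NUP188, the paralog of NUP205, and NUP93, a linker of the ring, did not pass (-0.02 and -0.09).

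The channel nucleoporins NUP62, NUP58 and NUP54 form a complex of FG-repeat proteins, and here they differed in sign. Beside the fall of NUP54, NUP58 measured 47.6, 47.8 and 45.9 CPM in si_NC and 50.1, 54.9 and 54.8 CPM in si_GRB2. All its si_GRB2 libraries were above the si_NC libraries (log2 fold change 0.18, SE 0.04, adjusted p = 0.00579). NUP62, the most abundant of the 3 by FPKM, measured 95.0, 96.0 and 96.6 CPM against 91.2, 97.7 and 88.8 CPM, and its groups overlapped (-0.05, SE 0.04, adjusted p = 0.376). NUP98, an FG protein made as a fusion with NUP96, had a log2 fold change of -0.03 (adjusted p = 0.605).

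On the cytoplasmic face, RANBP2 rose. This giant filament protein binds RAN and acts as a SUMO ligase, and it measured 78.5, 76.8 and 71.8 CPM in si_NC and 84.8, 87.9 and 90.5 CPM in si_GRB2 (log2 fold change 0.21, SE 0.04, adjusted p = 0.000841). Near-identical RGPD copies hold 0.553% as many reads as RANBP2. Since the authors retained reads with a unique position, reads that fit RANBP2 and a copy alike would have been left out. How many RANBP2 lost in this way is not known. NUP88, the most abundant of the cytoplasmic group by FPKM, measured 72.7, 73.4 and 71.8 CPM against 71.1, 69.5 and 70.6 CPM. Although these groups did not overlap, the difference did not pass the test (-0.05, SE 0.04, adjusted p = 0.373), and NUP214 and NUP42 did not pass either.

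On the nuclear side, NUP153, the basket protein that tethers the basket to the pore, measured 91.8, 95.4 and 94.0 CPM in si_NC and 84.3, 87.5 and 88.8 CPM in si_GRB2. This was a change of 7.32% downward, the smallest called in percent (log2 fold change -0.11, SE 0.04, adjusted p = 0.0260), and it was not called without si_NC replicate 2 (0.0788), si_GRB2 replicate 1 (0.103) or si_GRB2 replicate 2 (0.0635). TPR, which forms the basket's filaments, and NUP50 did not pass (0.01 and -0.04). NUP210, a transmembrane glycoprotein of the pore, measured 117, 108 and 117 CPM in si_NC and 97.7, 98.7 and 93.6 CPM in si_GRB2. Its 3 si_GRB2 libraries lay below all si_NC libraries (-0.24, SE 0.04, adjusted p = 0.000210). In all, 3 of the 24 tested pore proteins rose and 8 fell. That is 12.5% higher and 33.3% lower, against 15.2% and 15.5% of all genes tested. Genes within the middle range of the members' levels stood at 25.6% and 22.2%. The lean of the pore proteins to falls depended on the scaling and the test. Scaled by total counts alone, NUP107, NUP37, NUP35 and NUP153 lost their calls as lower, and NUP160 was called higher. By limma on log2(FPKM + 1), RANBP2 (higher) and NUP54 (lower) were the pore proteins still called.

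Among the 7 importin α genes, 4 rose (57.1%, against 15.2% of all genes tested), 2 fell (28.6%, against 15.5%) and KPNA4 did not pass. KPNA5 (chr6:116681187-116741867, plus strand), the least expressed of them, measured 3.67, 3.57 and 3.53 CPM in si_NC and 6.72, 6.30 and 6.36 CPM in si_GRB2. The 3 libraries of each group lay close together and far from the other group, a 1.80-fold rise (log2 fold change 0.85, SE 0.12, adjusted p = 5.18e-05). KPNA7 (chr7:99173572-99250075, minus strand), a divergent importin α known from oocytes and embryos, measured 5.10, 4.75 and 6.06 CPM against 8.46, 7.57 and 7.94 CPM, a rise of 50.4% (log2 fold change 0.59, SE 0.11, adjusted p = 0.000875). Its libraries scattered more, though the groups were again apart. KPNA7 sat at the fold limit of 1.5, and it fell short of that limit without si_NC replicate 1 (log2 fold change 0.55), si_NC replicate 2 (0.51) or si_GRB2 replicate 1 (0.55), while its adjusted p stayed under 0.01 in each case. On log2(FPKM + 1) the rise of KPNA5 came to 0.23, a scale that understates the change of a gene at such low FPKM.

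KPNA2 (chr17:68035636-68047364, plus strand), the importin α most abundant in dividing cells, moved the other way. It measured 910.1, 939 and 894 CPM in si_NC and 773, 790.5 and 783 CPM in si_GRB2, a fall of 14.5% with the groups far apart (log2 fold change -0.23, SE 0.02, adjusted p = 3.01e-06). KPNA1 measured 54.3, 55.1 and 54.4 CPM against 46.5, 47.9 and 51.6 CPM (-0.17, SE 0.04, adjusted p = 0.00835), and it was not called with total counts alone (0.0551). KPNA3 measured 53.1, 53.0 and 52.5 CPM against 58.1, 56.9 and 59.2 CPM (0.13, SE 0.04, adjusted p = 0.0126). For KPNA1 and for KPNA3 the groups did not overlap. KPNA6 measured 76.2, 72.7 and 70.7 CPM against 80.4, 78.8 and 77.7 CPM (0.11, SE 0.04, adjusted p = 0.0386), and of the 6 fits that leave out a library it kept its call only without si_NC replicate 1 (adjusted p from 0.0533 to 0.174 in the other 5).

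**Figure D2:**
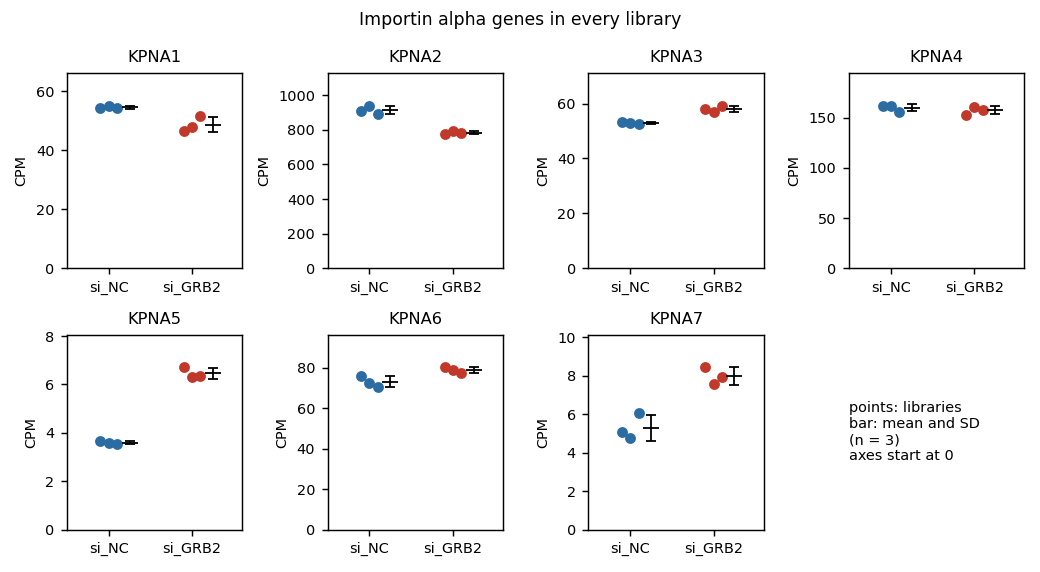
CPM of the 7 importin α genes in each library (points) with the group mean and SD (bars, n = 3), every y axis starting at 0. KPNA5, KPNA7, KPNA3 and KPNA6 are higher in si_GRB2, KPNA2 and KPNA1 are lower, and the groups of KPNA4 overlap.

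On the FPKM scale, which allows levels of different genes to be set side by side, KPNA2 supplied 73.8% to 74.6% of the summed importin α FPKM in the si_NC libraries and 69.5% to 70.1% in the si_GRB2 libraries. KPNA7 made up 1.40% to 1.85% in si_NC and 2.49% to 2.82% in si_GRB2, and KPNA5 0.184% to 0.192% and 0.363% to 0.388%. KPNA3 and KPNA4, which form a subfamily of their own, together made up 14.3% to 14.6% in si_NC and 16.5% to 16.7% in si_GRB2. None of these ranges overlapped between the groups. The 2 DEGs therefore stood for a small part of the importin α message, of which KPNA2 remained the larger part in every library.

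Of the 11 importin β family genes, TNPO3 alone was called with edgeR. KPNB1, the partner of importin α, measured 201 ± 4.68 CPM in si_NC and 208 ± 4.39 CPM in si_GRB2 (SD, n = 3), a log2 fold change of 0.05 (SE 0.03, adjusted p = 0.260). IPO7, the most abundant of the family by FPKM and a carrier of ribosomal proteins, measured 288, 284 and 274 CPM in si_NC and 273, 281 and 294 CPM in si_GRB2, overlapping groups with a fold of 1.00 (adjusted p = 0.959). The other 8 lay between -0.09 (TNPO2) and 0.09 (IPO8) in log2 fold change. IPO4 (-0.06, adjusted p = 0.237) passed the test when si_NC replicate 1 was left out (adjusted p = 0.0381), and IPO5, IPO8, IPO13 and KPNB1 passed as higher with total counts alone.

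Among the exportins, XPO1 (CRM1), which carries cargo with leucine-rich export signals and is the target of selinexor, fell. It measured 236 CPM in each si_NC library and 202, 211 and 214 CPM in si_GRB2 (log2 fold change -0.17, SE 0.03, adjusted p = 0.000222), and no si_GRB2 library reached the si_NC level. CSE1L, which returns importin α to the cytoplasm, rose from 413, 433 and 411 CPM to 451, 451 and 464 CPM, again without overlap (0.12, SE 0.03, adjusted p = 0.00277). XPO7 measured 68.5, 71.5 and 70.1 CPM against 73.5, 76.5 and 77.3 CPM (0.11, SE 0.04, adjusted p = 0.0287). That call was kept without si_GRB2 replicate 1 and lost without any of the other 5 libraries (adjusted p from 0.0524 to 0.138). XPO4 and XPO6 did not pass (0.02 and 0.05). KPNA2 and CSE1L, a cargo receptor and the exportin that recycles it, thus moved in opposite directions.

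RAN (chr12:130872037-130877678, plus strand) fell by 9.69%. It measured 528, 539 and 542 CPM in si_NC and 476, 478 and 499.6 CPM in si_GRB2, with every si_GRB2 library below the si_NC libraries (log2 fold change -0.15, SE 0.03, adjusted p = 0.000439). The regulators of its cycle were read from a separate list of 6 genes, of which 4 fell and RANBP3 and NUTF2 did not pass. For this list and the further lists below, the shares over all genes tested were 15.2% higher and 15.5% lower. Within the middle range of the members' levels they were 25.6% and 22.2%, a range that does not cover every listed gene. RANGRF, a RAN-binding factor, had a log2 fold change of -0.35 (SE 0.05, adjusted p = 0.000125), RANGAP1, the GTPase activator on the cytoplasmic face, of -0.26 (SE 0.03, adjusted p = 8.01e-06) and RCC1, the nucleotide exchange factor on chromatin, of -0.15 (SE 0.03, adjusted p = 0.00204). RANBP1 completed the 4. RANBP2, the pore protein that holds RANGAP1 at the filaments, was higher, as given above. With limma on log2(FPKM + 1), 2 of the 6 were called, both lower, and with total counts alone 3 were lower and 2 higher.

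Further pore components outside the naming rule moved both ways, with 3 of 9 higher and 2 lower. GLE1, which stimulates the helicase that strips export factors from mRNA at the cytoplasmic face, rose by a log2 fold change of 0.49 (SE 0.04, adjusted p = 1.44e-07), while NUP42, its binding partner among the members, had 0.09 (SE 0.08, adjusted p = 0.496). NDC1, a transmembrane anchor of the pore, fell by 0.26 on the log2 scale (SE 0.04, adjusted p = 3.89e-05), as NUP210 did. POM121C, another transmembrane gene, rose (0.32, SE 0.04, adjusted p = 6.07e-06), and so did POM121 (0.26, SE 0.04, adjusted p = 0.000104). The sequences of both are nearly identical. Reads that fit both alike would have been left out of the counts, and how well the rest were told apart is uncertain. Of 9 further carriers and adaptors, SNUPN, which recognises the cap of spliceosomal RNAs, was called (-0.28, SE 0.09, adjusted p = 0.0221), a call not kept without si_NC replicate 2 or without si_GRB2 replicate 1 or 3, nor with DESeq2. With total counts alone, 3 of these 9 were called, all higher.

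The mRNA export factors, which share the pore with these receptors, had 1 of 23 genes higher and 5 lower. PCID2, of the TREX-2 complex at the basket, had a log2 fold change of -0.28 (SE 0.04, adjusted p = 4.67e-05), the export adaptor ALYREF -0.22 (SE 0.04, adjusted p = 0.000210) and the helicase DDX39A -0.20 (SE 0.03, adjusted p = 0.000317). With limma on log2(FPKM + 1) only 1 of the 23 was called. Among 20 proliferation genes 16 fell and 4 did not pass, with PCNA, MCM2 and RRM2 at -0.31 each. With total counts alone, 11 of the 20 were called lower. Their summed level was 4129 to 4193 CPM in si_NC and 3625 to 3692 CPM in si_GRB2. Of the members with many reads, KPNA2, XPO1 and RAN also fell, whereas CSE1L rose and KPNB1, IPO5 and IPO7 did not pass. The part that the proliferation genes' fall, or the shifts in mitochondrial reads and SK-BR-3 markers, had in the members' changes was not tested.

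**Figure D3:**
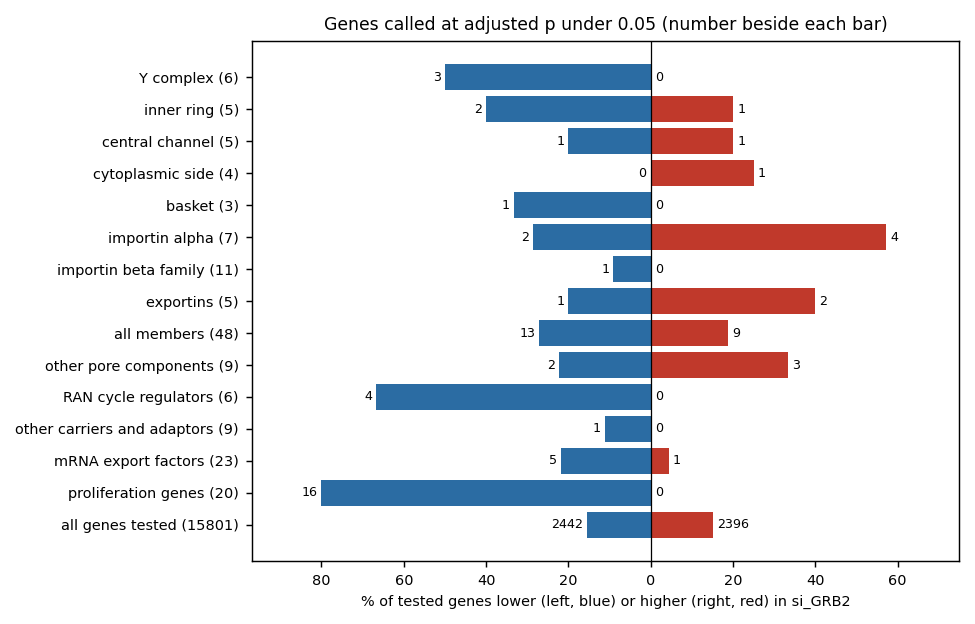
Percentage of tested genes called lower (left) or higher (right) in si_GRB2 at an adjusted p under 0.05, by role of the members and by further list, with the number of genes tested in brackets and the number called beside each bar. Proliferation genes (16 of 20) and RAN cycle regulators (4 of 6) lean to the left, and importin α genes (4 of 7 higher) to the right. All genes tested stand at 15.5% lower and 15.2% higher.

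In absolute level the members spread widely. By mean FPKM over the 6 libraries, CSE1L (93.9), KPNA2 (93.8) and RAN (89.2) led the set, with overlapping ranges among them. IPO7 followed at 31.9, below RAN and above IPO4 (20.3) without overlap. The median of the members was 7.61, and 38 of the 49 lay between 3 and 20 FPKM. KPNA7 stood at 2.74, NUP62CL at 0.773, KPNA5 at 0.362 and NUP210L at 0.00833. Of the 48 neighbouring pairs in this order, 40 had overlapping ranges over the 6 libraries, so most neighbours cannot be put in order. Within the pore, NUP85 (13.4) stood above its Y complex partner NUP107 (5.49), and NUP62 (12.8) above its channel partners NUP54 (7.22) and NUP58 (3.94). The annotation lengths behind FPKM are the authors' own and enter each of these comparisons.

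**Figure D4:**
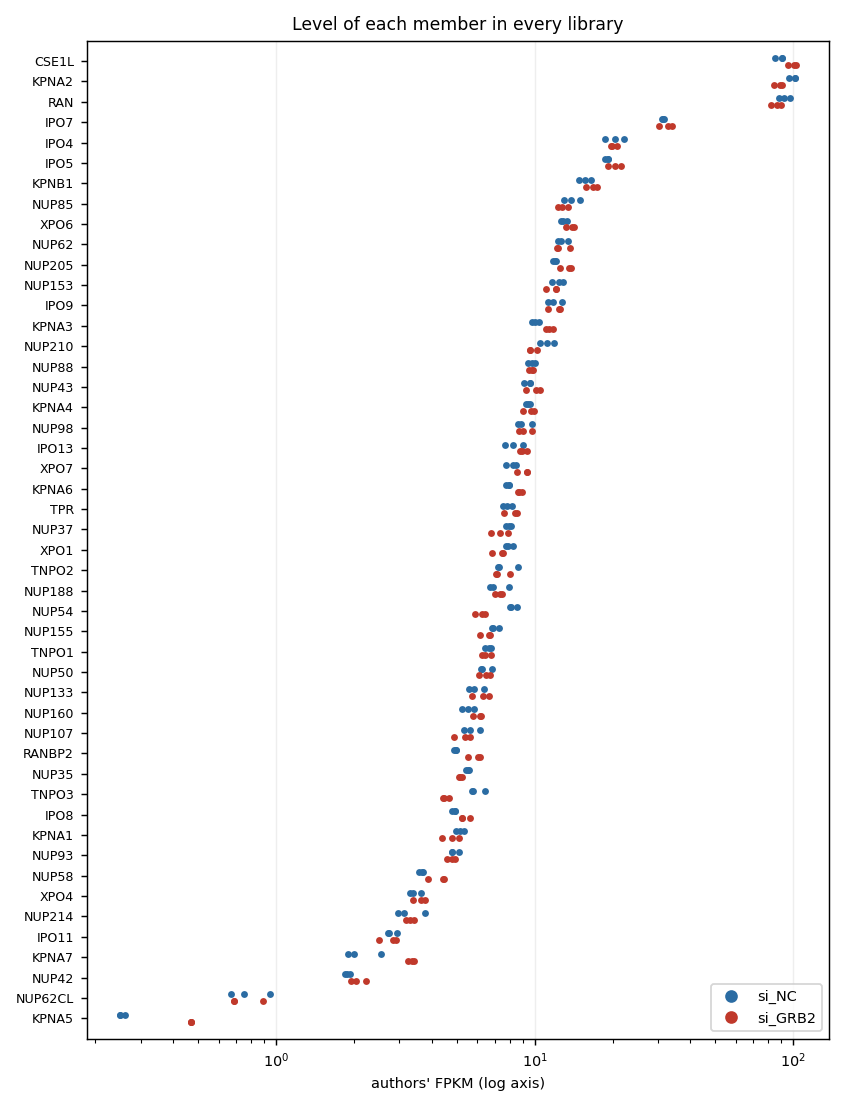
The authors' FPKM of each member in every library on a log axis, ordered by mean level, blue for si_NC and red for si_GRB2, without NUP210L, whose mean was 0.00833. CSE1L, KPNA2 and RAN lie near 90, most members between 3 and 20, and KPNA5 at the bottom with its groups apart.

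**Figure D5:**
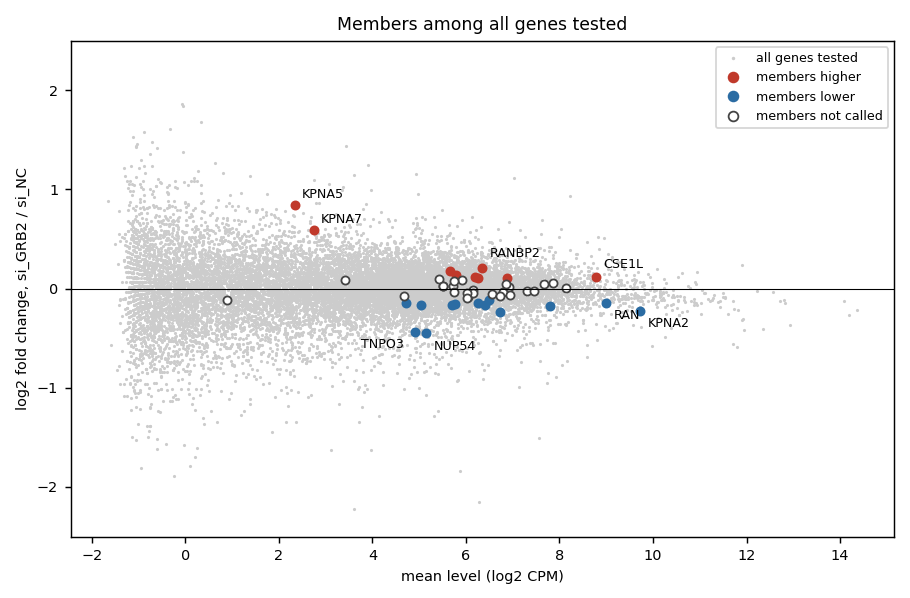
Log2 fold change (y axis, shown between -2.5 and 2.5) against mean log2 CPM (x axis) for all genes tested, with the members marked by call. The members lie mostly to the right of the median gene (6.16 against 4.02) and close to the horizontal line at 0.

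A short guide strand can also lower messages that pair with its seed. The 7-base match to guide positions 2 to 8 of the GRB2 siRNA, ACAGATC, occurred in the 3′ UTR of 3 of the 48 tested members (6.25%), against 8.12% of the 12694 tested genes with an annotated UTR. The members were NUP107, KPNA4 and TNPO1, and each site is shown with 10 bases on either side, the match in capitals.
NUP107: attggagattACAGATCccgctcttct
KPNA4: gctacaggtcACAGATCgtcagtgcct
TNPO1: ctctgtgctaACAGATCtccattttaa
The windows lie at chr12:68743033-68743059 (plus strand), chr3:160501786-160501812 (minus strand) and chr5:72914169-72914195 (plus strand) of GRCh38. NUP107 was called lower (-0.15), and KPNA4 (-0.02) and TNPO1 (-0.07) were not called. The other 45 tested members, 12 called lower and 9 higher, held no match. Only the 3′ UTR of each gene's canonical transcript was searched, for this exact match alone. Over all genes the median log2 fold change was -0.056 with a match and 0.008 without. Of the genes with a match 30.0% were called lower and 12.7% higher, against 16.8% and 18.4% of those without. The genes with a match also had longer UTRs (median 3411 against 1170 bases). The part of such matches in the members' changes was not tested.

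Some members overlap a gene on the opposite strand, and how strand was treated in counting is not given in the sources used here, so the reads of such partners may not be fully separated. Of the members called, 7 had an opposite partner. KPNA1 had WDR5B-DT with 6.49% as many reads, KPNA7 had MYH16 with 3.41% and NUP153 had NUP153-AS1 with 2.09%, whose own log2 fold change was -0.73. For XPO1 (USP34-DT, 1.31%), NUP37 (an unnamed lncRNA, 1.15%), NUP107 (NUP107-DT, 0.115%) and NUP54 (ART3, 0.053%) the share was smaller. The larger overlaps were with members not called, PCMT1 with NUP43 (228%), SH3GLB2 with NUP188 (124%), RABEP1 and RPAIN with NUP88 (104% and 55.3%), PGAP2 with NUP98 (46.0%) and ATF5 with NUP62 (44.3%).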

How the data were processed

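RNA-seq libraries of 3 si_NC and 3 si_GRB2 samples were grouped by their descriptions. The authors trimmed reads with FASTX-Toolkit, mapped them with HISAT2 (build GRCh38) and retained reads with a unique position. They deposited the reads per gene as raw counts, and as FPKM, which the authors scaled per gene length. The counting tool and its strand setting are not given in the sources used here.

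Low counts were removed with filterByExpr, which left 15801 genes. Libraries were scaled by TMM, and si_GRB2 was tested against si_NC with the quasi-likelihood test of edgeR 4.0.16 in R 4.3.3, without covariates, with Benjamini-Hochberg adjustment over all genes kept. CPM are TMM-scaled, and the SE is the log2 fold change divided by the square root of F. The test was also run on counts simulated with the dispersions fitted to these data, which checks the code and not the calls reported here. The 16 alternatives included DESeq2 1.42.0 and limma 3.58.1 on log2(FPKM + 1). Total counts were 24810378 to 28532480 per library, and the common biological coefficient of variation was 3.75%.

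The members and lists were chosen with earlier results of these data known. Values in every library are given for RAN, the DEGs, up to 10 members with the largest rise and up to 10 with the largest fall among those called, and the member of highest FPKM in each role. For each further list, up to 3 called genes of largest change are named, besides partners of a member. Gene positions and 3′ UTRs came from GENCODE 44 (all 49 members matched) and promoters from RefSeq (43 matched). Protein sequences were not analysed here.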

Additional observations from a re-analysis of the deposited data

How the results depend on the processing

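All 22 called members kept their direction under 16 alternatives (0 reversed). The 766 refits of single members include those of members not called in the main test. In 678 of them the member stayed as it was, called or not called, 81 lost a call and 7 gained one. All 81 losses belong to the 22 called members. Scaling by total counts alone gave 15 higher and 8 lower members and a median log2 fold change of 0.021 (0.052 over all genes), and 3 calls among the other carriers. DESeq2 called 18 members and 0 other carriers. Limma called 5 members higher and 3 lower on log2(FPKM + 1) and on log2(FPKM + 0.1), and 6 and 4 where the mean FPKM was at least 1, with medians of 0.013, 0.015 and 0.013 (0.024, 0.043 and 0.036 over all genes). Its calls were 2 in each for the RAN cycle regulators, 0 for the other carriers, 1, 2 and 3 for the mRNA export factors, and 8, 9 and 9 for the proliferation genes. Over all genes it called 2633, 2663 and 2709, where edgeR called 4838. The cause was not tested. The alternatives for the further lists were chosen after seeing the data. The count of up-regulated DEGs among the members was 1 with upper-quartile factors, with no filter and with a minimum of 10 counts per library, KPNA7 falling just short of the fold limit, and 0 in limma on log2(FPKM + 1) with either filter.

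Leaving out each library in turn gave 6 to 8 members higher, 9 to 13 lower, 1 to 2 up-regulated and 0 down-regulated DEGs, medians from -0.042 to -0.015 and a GRB2 log2 fold change from -2.18 to -2.13. It gave 5 other pore components, 3 to 4 RAN cycle regulators, 0 to 1 other carriers, 5 to 6 mRNA export factors and 14 to 15 proliferation genes called. A replicate block, with the numbers taken as pairs, called 19 members (7 higher, 12 lower), losing KPNA6, NUP35 and XPO7, and GRB2 stayed at -2.15. The numbers pair nothing that the labels name, and the deviations of same-numbered libraries correlated at 0.232, -0.095 and 0.08, so that not every library correlated best with its own number. Of the tested members, NUP62CL and KPNA5 had the fewest reads and so the widest relative counting error.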
